A study of Mus musculus with 12 samples.

Results

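The genes of transforming growth factor beta (TGF-beta) activation and signalling were followed by RNA sequencing in regulatory T (Treg) cells, the Foxp3-bearing branch of CD4 T cells that holds immune responses in check. The set holds 10 of the 55453 genes in the count table and was chosen by symbol: Tgfb1, Lrrc32, Itgb8, Tgfbr1, Tgfbr2, Smad2, Smad3, Smad4, Smad7 and Ski. CNS4 is a distal enhancer of Foxp3, a gene of the X chromosome, and the comparison of genotypes asks which transcripts differ when that enhancer is absent. Cells were sorted as CD4+Foxp3+ from C57BL/6 mice, and the sample titles hold the letters Thy. The 12 libraries form 4 groups of 3. Males were either CNS4 knockout or CNS4 floxed, and the labels equate the floxed males with wild type: recombination sites flank the enhancer, which is still present. Females were either CNS4 knockout heterozygotes or CNS4 floxed heterozygotes. Which Foxp3 allele the heterozygous cells used, the ages of the mice and the number of mice behind a library are not given in the sources used here. The p-values therefore measure the spread between these libraries, which may be partly technical.

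TGF-beta is secreted as a latent complex in which the prodomain encloses the mature ligand. On Treg cells this complex is held at the surface by GARP, the product of Lrrc32, and it is opened by integrins that grip the prodomain, among them the integrin whose beta subunit is encoded by Itgb8. Free ligand binds the type II receptor (Tgfbr2), which activates the type I receptor (Tgfbr1), which phosphorylates SMAD2 and SMAD3. These join SMAD4 and act in the nucleus, while SMAD7 blocks the receptor and SKI represses SMAD target genes. In the thymus, TGF-beta is known for supporting the survival of Treg precursors.

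The activating integrins recognise an arginine-glycine-aspartate motif in the prodomain, and the coding bases of Tgfb1 around that motif are shown because activation of the latent ligand acts there. The window lies at chr7:25696989-25697177 of build GRCm38 on the plus strand, spans exons 4 and 5 in GENCODE release M21 and holds 60 coding bases. Capitals mark the 3 codons of the motif, which begins at codon 244 and occurs 1 time in the coding sequence.
Tgfb1 motif: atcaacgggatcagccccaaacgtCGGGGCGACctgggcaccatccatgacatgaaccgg

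Reads assigned to genes numbered 12423335 to 30244505 per library, with a median of 14596845. Genes annotated on the plus strand took 95.8 to 97.2% of the reads of protein-coding genes, so the table hardly covers the minus strand and a low count there does not show a low transcript level. Of the 10 TGF-beta genes, 5 lie on the plus strand (Tgfb1, Lrrc32, Tgfbr1, Smad2 and Smad7) and 5 on the minus strand (Itgb8, Tgfbr2, Smad3, Smad4 and Ski). The low-count filter kept 7 of them, all 5 plus-strand genes with Itgb8 and Tgfbr2. None of the 10 shares exonic bases with another gene on either strand in that annotation. The CD4 and Treg marker list, 10 genes, summed to 7533 to 9807 CPM (read counts scaled to library size after TMM normalisation) over all libraries. Foxp3 itself had 1878, 1462 and 2037 CPM in male knockout libraries 1 to 3, against 2675, 2588 and 2227 CPM in male floxed libraries 1, 2 and 4. In heterozygous females it had 685, 1824 and 825 CPM in knockout libraries and 2582, 2658 and 2657 CPM in floxed libraries. Foxp3 was thus lower in every knockout library of either sex, but gene counts are no readout of the enhancer. Of all tested genes, 6.13% in males and 9.7% in females were lower without overlap. Foxp3 shares 853 exonic bases with Flicr on the same strand, and 18.7% of its exonic bases overlap genes on the other strand. The fold change of Foxp3 did not pass the threshold in males (adjusted p = 0.835), in females (0.103) or over both sexes (0.06) by edgeR's quasi-likelihood test. Over both sexes Foxp3 was called lower under 5 of 22 alternatives. These were DESeq2 (adjusted p = 0.00627), limma-voom with quality weights (0.000275) and edgeR under changed settings. The edgeR settings were a GC and length trend removed (0.022), a filter of 5 CPM in 3 libraries (0.0429) and female knockout library 2 left out (0.00117).

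None of the 7 tested TGF-beta genes passed an adjusted p of 0.05 by edgeR's quasi-likelihood test in any of 4 comparisons: knockout against floxed in males, in heterozygous females and over both sexes, and the female contrast minus the male one. The shares of all 12411 tested genes that passed were 0.0242% in males, 0.201% in females, 3.31% over both sexes and 0% for the difference. At an unadjusted p under 0.05 only Tgfbr2 was found, in females and over both sexes, where 19.2 and 20.2% of all tested genes reached that level; none of the 7 did in males (8.12% of all) or for the difference (2.73% of all). With DESeq2 the members called were 0 in males, 1 in females, 1 over both sexes and 0 for the difference, each time Tgfbr2 with a value below 0. Of all tested genes DESeq2 called 0.5% below 0 in males, 1.81% in females, 2.88% over both sexes and 0% for the difference. With limma-voom and quality weights the members called were 0, 6, 4 and 2 in the same order, all with values below 0, where it called 0.25, 25.4, 22.5 and 7.85% of all tested genes below 0. All 5 plus-strand genes were lower in female knockout libraries 1 and 3 than in any female floxed library, and higher in female knockout library 2 than in libraries 1 and 3. The share of all tested genes with this pattern was not determined. Libraries 1 and 3 also stood apart over all tested genes, at 98.9 and 93.4 on the first principal component, which held 49.8% of the variance. All other libraries lay between -72.9 and 33.1 on it. Libraries 1 and 3 thus differed from the rest beyond the TGF-beta genes. This component does not show how many genes share the pattern, so the pattern is not read as a trait of the set.

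Tgfb1, which encodes the ligand, lies at chr7:25687002-25705077 (GRCm38, plus strand). It had 137, 151 and 352 CPM in male knockout libraries 1, 2 and 3, against 258, 262 and 254 CPM in male floxed libraries 1, 2 and 4. Knockout libraries 1 and 2 lay below and library 3 above the narrow floxed range, so the male groups overlap. Their means were 214 ± 120 CPM in knockout and 258 ± 3.54 CPM in floxed cells (SD, n = 3 each), and the log2 fold change was -0.27 (SE 0.65, edgeR adjusted p = 0.999), or -0.83 (edgeR adjusted p = 0.653) without male knockout library 3. In heterozygous females Tgfb1 had 14.8, 105 and 20.4 CPM in knockout libraries 1, 2 and 3, against 75.4, 133 and 151 CPM in floxed libraries 1, 2 and 3. Libraries 1 and 3 were far below every floxed library, while library 2 lay within the floxed range. The female log2 fold change was -1.36 (SE 0.67, edgeR adjusted p = 0.285), with a 95% confidence interval of -2.84 to 0.11. With female knockout library 2 left out the value was -2.76 (SE 0.46, edgeR adjusted p = 0.0029). Without libraries 1 and 3 it was -0.19, a fit with 1 female knockout library left, which cannot show that a change is absent. The mean of both sexes was -0.82 (SE 0.46, edgeR adjusted p = 0.339). It was -1.51 (edgeR adjusted p = 0.00624) with female knockout library 2 left out and -0.24 without female knockout libraries 1 and 3. In bulk RNA, fewer cells that express a gene and less RNA per cell cannot be told apart.

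Lrrc32 encodes GARP, the surface anchor of the latent ligand, and lies at chr7:98489283-98502181 (GRCm38, plus strand). It had 690, 623 and 2003 CPM in male knockout libraries 1, 2 and 3, against 953, 1474 and 828 CPM in male floxed libraries 1, 2 and 4. As with Tgfb1, knockout library 3 was the highest male library and knockout libraries 1 and 2 the lowest. In females it had 259, 587 and 297 CPM in knockout libraries, against 494, 686 and 684 CPM in floxed libraries. Knockout libraries 1 and 3 again lay below the floxed range and library 2 inside it. The log2 fold change was 0.03 (SE 0.46, edgeR adjusted p = 0.999) in males, -0.71 (SE 0.46, edgeR adjusted p = 0.395) in females and -0.34 (SE 0.33, edgeR adjusted p = 0.573) over both sexes. The male value was decided by 1 library, since it was -0.71 (edgeR adjusted p = 0.406) without male knockout library 3. The female value was -1.15 (edgeR adjusted p = 0.125) with female knockout library 2 left out. It was -0.08 without female knockout libraries 1 and 3, where 1 female knockout library is left.

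Itgb8, the integrin subunit of the activating receptor, lies on the minus strand and had 9 to 25 counts per library. Its level was 0.728 to 1.57 CPM in male knockout and 0.626 to 1.24 CPM in male floxed libraries, and 1 to 1.48 CPM in female knockout and 1.04 to 1.15 CPM in female floxed libraries. The groups overlapped in both sexes, and the log2 fold change over both was 0.27 (SE 0.26, edgeR adjusted p = 0.569).

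**Figure D1:**
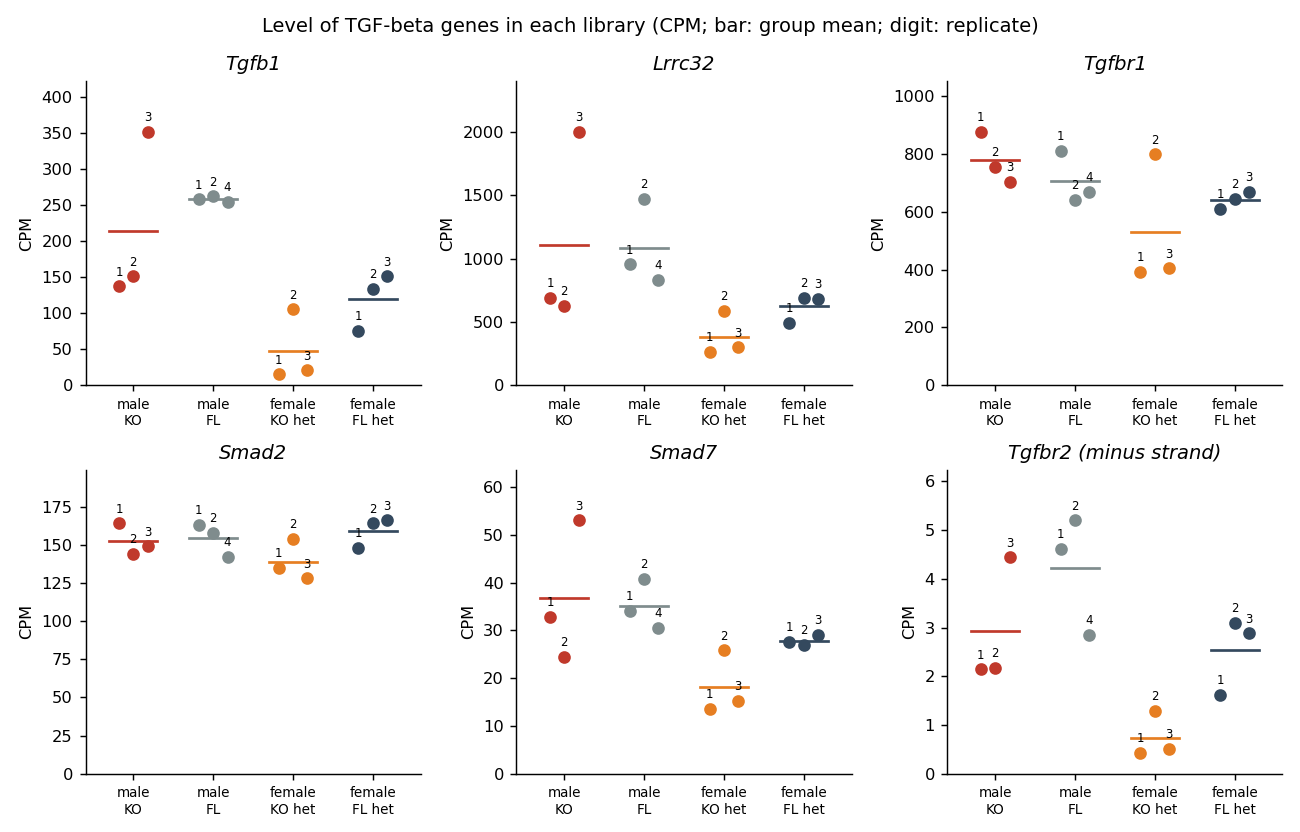
Level in CPM (linear axis from 0) of 6 TGF-beta genes in each of the 12 libraries, with knockout left of floxed within each sex, a bar at the group mean and the replicate number above each point. Female knockout libraries 1 and 3 sit low for Tgfb1, Lrrc32, Tgfbr1 and Smad7 while library 2 sits near the floxed libraries, and Smad2 stays between 128 and 166 CPM throughout.

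Of the receptors, Tgfbr1 encodes the type I receptor kinase and lies at chr4:47353222-47414931 (GRCm38, plus strand). It had 878, 756 and 705 CPM in male knockout libraries 1, 2 and 3, against 812, 641 and 669 CPM in male floxed libraries 1, 2 and 4, so the male groups overlap. In females it had 393, 799 and 404 CPM in knockout libraries, against 611, 645 and 670 CPM in floxed libraries. The knockout libraries thus lay on both sides of the floxed ones, 2 below and 1 above. Log2 fold changes were 0.14 (SE 0.24, edgeR adjusted p = 0.999) in males and -0.27 (SE 0.24, edgeR adjusted p = 0.526) in females. With female knockout library 2 left out, the female value was -0.68 (SE 0.12, edgeR adjusted p = 0.0034). The mean of both sexes was -0.07 (SE 0.17, edgeR adjusted p = 0.844), and -0.27 (edgeR adjusted p = 0.0407) without that library. Without female knockout libraries 1 and 3 the female value turned to 0.32, a fit in which the spread of the lone library is taken from the other groups.

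Tgfbr2 encodes the type II receptor, which binds the ligand first, and lies on the minus strand of chromosome 9. Its counts were 34, 33 and 117 in male knockout libraries 1, 2 and 3 and 67, 67 and 41 in male floxed libraries 1, 2 and 4. In females they were 7, 18 and 7 in knockout libraries, against 24, 41 and 47 in floxed libraries. In CPM the female knockout libraries had 0.423, 1.29 and 0.516, all below the 1.62, 3.10 and 2.88 CPM of the floxed ones. The male knockout libraries had 2.14, 2.18 and 4.44 CPM, which overlapped with 4.62, 5.20 and 2.85 CPM in male floxed libraries. The log2 fold change was -1.77 (SE 0.49, unadjusted p = 0.00456, edgeR adjusted p = 0.13) in females, -0.52 (SE 0.44, edgeR adjusted p = 0.955) in males and -1.14 (SE 0.33, unadjusted p = 0.00577, edgeR adjusted p = 0.0902) over both sexes. DESeq2 gave an adjusted p of 0.0196 in females and 0.0196 over both sexes, and edgeR gave 0.0396 over both sexes without male knockout library 3 and 0.00894 without female knockout library 2. In females edgeR gave -2.41 (adjusted p = 0.00727) without female knockout library 2. With limma-voom and quality weights Tgfbr2 had -2.27 (adjusted p = 0.00113) in females and -1.57 (adjusted p = 0.00143) over both sexes. Without any 1 of the other libraries the edgeR adjusted p lay between 0.102 and 0.443 in females and between 0.0833 and 0.227 over both sexes. Without female knockout libraries 1 and 3, with 1 female knockout library left, the log2 fold change of Tgfbr2 was -0.97 in females and -0.75 over both sexes. How far counts of this minus-strand gene follow its transcript was not tested.

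Among the signal transducers, Smad2, on the plus strand of chromosome 18, encodes a receptor-activated SMAD and was the steadiest of the set. It had 164, 144 and 149 CPM in male knockout libraries, against 163, 158 and 142 CPM in male floxed libraries, and 135, 154 and 128 CPM in female knockout libraries, against 148, 164 and 166 CPM in female floxed libraries. The male groups overlap fully, and in females knockout libraries 1 and 3 were a little below the floxed range. The log2 fold change over both sexes was -0.11, with a 95% confidence interval of -0.29 to 0.07 (SE 0.08, edgeR adjusted p = 0.453). In males the interval was -0.27 to 0.23, which bounds a change in Smad2 more tightly than for any other gene of the set. Smad3, the partner of SMAD2 that the receptor also phosphorylates, had 0 to 13 counts, and Smad4, the shared SMAD of the complex, 0 to 7 counts per library. Both lie on the minus strand, fell below the filter and were not tested, and their counts say nothing of their transcript levels.

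Of the inhibitors, Smad7, also on the plus strand of chromosome 18, is a target of the pathway whose product blocks the receptor. It had 32.8, 24.4 and 53.0 CPM in male knockout libraries 1, 2 and 3, against 34.1, 40.7 and 30.5 CPM in male floxed libraries 1, 2 and 4, and these groups overlap. In females it had 13.5, 25.8 and 15.3 CPM in knockout libraries, against 27.6, 27.0 and 29.0 CPM in floxed libraries. All 3 female knockout libraries were below all 3 floxed ones, library 2 only just. Smad7 and Tgfbr2 were the 2 of 7 tested genes with such a gap in females, where 9.7% of all tested genes were lower without overlap and 15.3% higher; in males it was none of 7, with 6.13% of all lower and 8.2% higher. The log2 fold change of Smad7 was 0.07 (SE 0.30, edgeR adjusted p = 0.999) in males and -0.61 (SE 0.31, edgeR adjusted p = 0.292) in females. The female value was -0.94 (edgeR adjusted p = 0.0428) with female knockout library 2 left out. It was -0.11 without libraries 1 and 3, where 1 female knockout library is left. Ski, the nuclear repressor of SMADs, lies on the minus strand with 0 to 6 counts and was not tested.

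**Figure D2:**
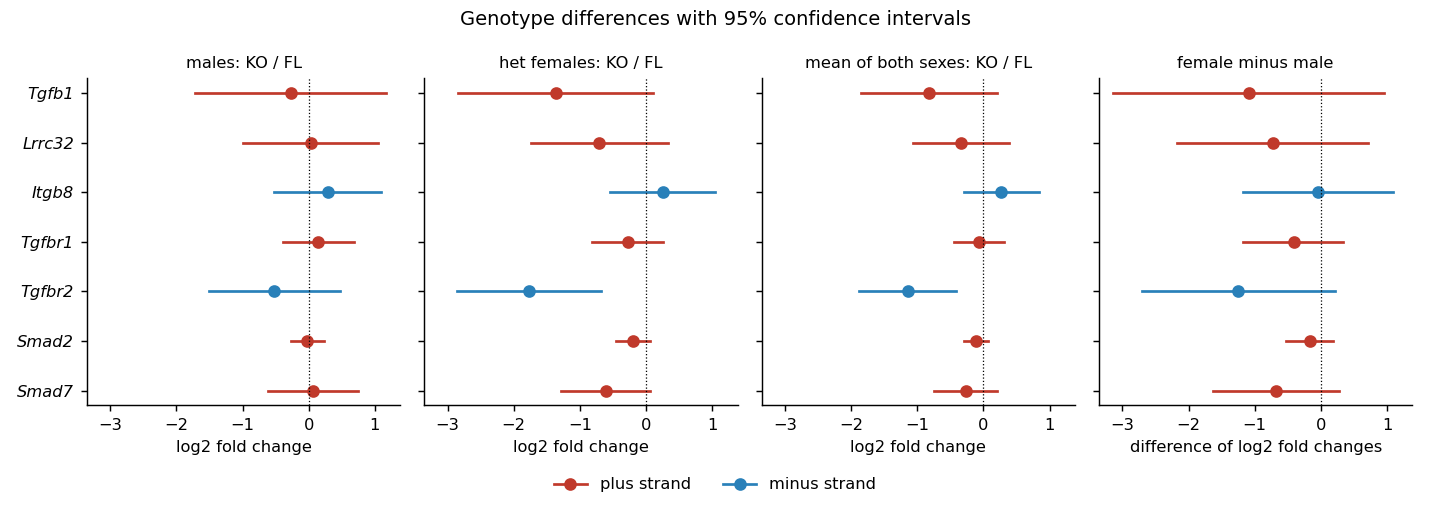
Log2 fold changes (dots) with 95% confidence intervals (lines) of the 7 tested TGF-beta genes, knockout over floxed, in males, in heterozygous females and as the mean of both, and the female minus the male contrast in the last panel; red is plus strand and blue minus strand. Apart from Tgfbr2 in females and over both sexes, every interval includes 0, and the narrowest belong to Smad2.

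Side by side, the median log2 fold change of the 7 tested genes was 0.03 in males (0.01 over all tested genes), -0.61 in females (-0.02 over all) and -0.27 over both sexes (-0.02 over all). Below 0 lay 3 of 7 in males, 6 of 7 in females and 6 of 7 over both sexes, with Itgb8 the exception in the last 2. Of all 12411 tested genes 5988, 6360 and 6487 lay below 0 in the same order. The female minus the male contrast lay below 0 for all 7, with a median of -0.68 against -0.05 over all tested genes. It was -1.09 (SE 0.93) for Tgfb1, -0.73 (SE 0.65) for Lrrc32, -1.25 (SE 0.66) for Tgfbr2 and -0.68 (SE 0.43) for Smad7, each with an edgeR adjusted p of 0.892. No difference between the sexes was therefore called, although without female knockout library 2 those of Tgfb1 (-2.50, edgeR adjusted p = 0.0272) and Tgfbr1 (-0.83, edgeR adjusted p = 0.0125) were.

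Levels between genes can be set side by side per kilobase of exon. On that scale Lrrc32 was the highest of the plus-strand genes in male knockout cells (236 ± 166 CPM per kb) and in male floxed cells (232 ± 73.1 CPM per kb; SD, n = 3 each). It was followed by Tgfbr1, with 119 ± 13.6 CPM per kb in male knockout and 108 ± 14 CPM per kb in male floxed cells. Next came Tgfb1 with 42.4 ± 23.9 and 51.2 ± 0.701 CPM per kb in the same 2 groups, Smad2 with 17.3 ± 1.18 and 17.6 ± 1.22, and Smad7 with 8.12 ± 3.24 and 7.77 ± 1.15. The anchor of the latent ligand thus ranked at percentiles 91.9 to 98 of the 6689 tested plus-strand coding genes over the 4 groups, and the inhibitor Smad7 at percentiles 36.2 to 42.4. In female knockout cells Lrrc32 (81.3 ± 38.3 CPM per kb) and Tgfbr1 (81.4 ± 35.4 CPM per kb) did not differ beyond their spread, and Tgfb1 (9.26 ± 10 CPM per kb) came below Smad2 (15.8 ± 1.55 CPM per kb), while female floxed cells kept the male order, with Tgfb1 at 23.8 ± 7.84 and Smad2 at 18.1 ± 1.14 CPM per kb. Lrrc32 and Tgfbr1 in male knockout cells, Tgfb1 and Smad2 in both female groups, and Tgfb1 and Smad7 (4.03 ± 1.47 CPM per kb) in female knockout cells were not apart by more than 1 SD of the more variable gene. The level of Lrrc32 per kb was 18.8, 6.02 and 15.7 times that of Tgfb1 in female knockout libraries 1, 2 and 3, against 7.04, 5.53 and 4.87 times in female floxed libraries. In the 6 male libraries the ratio lay between 3.5 and 6.11, so libraries 1 and 3 stood apart from the other 10 and library 2 did not.

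The genes of the set also differed in how widely they ranged over the 12 libraries. The highest library exceeded the lowest 23.8-fold for Tgfb1, 7.75-fold for Lrrc32, 3.92-fold for Smad7, 2.23-fold for Tgfbr1 and 1.3-fold for Smad2. Among the 4916 plus-strand coding genes with a mean of at least 10 CPM the median was 2.15-fold, and 96.7% of them ranged less than Tgfb1 but only 2.79% less than Smad2. Female knockout library 1 was the lowest for Tgfb1, Lrrc32, Tgfbr1 and Smad7, and male knockout library 3, the most deeply sequenced, was the highest for Tgfb1, Lrrc32 and Smad7. The order of the genes by range followed the GC content of their longest coding transcript in part: 62.5% for Tgfb1, 58.3% for Lrrc32, 56.9% for Smad7, 44.9% for Smad2 and 41% for Tgfbr1.

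Libraries differed in how their counts depended on GC content. The Spearman rho between the GC content of a gene and the deviation of a library from the mean, taken across genes that are no independent replicates, was -0.398, -0.128 and -0.319 in female knockout libraries 1, 2 and 3, against -0.0524, 0.0852 and 0.249 in female floxed libraries. It was -0.0784, 0.0234 and 0.403 in male knockout libraries 1, 2 and 3, against 0.166, 0.26 and 0.508 in male floxed libraries 1, 2 and 4. GC-rich genes as a whole were thus low against the mean in the female knockout libraries in which Tgfb1, Lrrc32 and Smad7 were low. Every female knockout rho lay below every female floxed one, so GC dependence and genotype cannot be told apart in females. Removing the trend may also remove a genotype difference, and which of the 2 lowered these genes was not tested. The contrast in base composition is shown by the central 90 coding bases of the ligand, its anchor and the type I receptor (GENCODE M21, build GRCm38, plus strand; capitals mark G and C). They lie at chr7:25694247-25694336 in exon 3 of Tgfb1, at chr7:98498963-98499052 in exon 3 of Lrrc32 and at chr4:47396489-47396578 in exon 4 of Tgfbr1. G and C make up 55.6% of the first, 52.2% of the second and 43.3% of the third, and 58.5, 59.4 and 44.8% of the whole coding sequences.
Tgfb1: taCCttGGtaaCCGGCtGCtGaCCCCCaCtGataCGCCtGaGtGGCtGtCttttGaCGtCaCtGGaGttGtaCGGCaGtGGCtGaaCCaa
Lrrc32: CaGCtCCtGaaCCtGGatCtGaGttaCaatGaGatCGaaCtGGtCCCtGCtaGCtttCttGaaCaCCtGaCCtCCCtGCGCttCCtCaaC
Tgfbr1: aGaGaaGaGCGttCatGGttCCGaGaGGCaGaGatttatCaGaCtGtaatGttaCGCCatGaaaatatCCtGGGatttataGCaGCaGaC

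When each library was freed of a smooth trend with GC content and length, the female knockout libraries moved by different amounts for different genes. Lrrc32 then had 646, 590 and 574 CPM in female knockout libraries 1, 2 and 3, against 556, 655 and 611 CPM in female floxed libraries. The 2 low libraries no longer lay below the floxed range on this scale, and the female log2 fold change was -0.01 (SE 0.25, edgeR adjusted p = 0.985). Smad7 had 27.3, 25.7 and 25.0 CPM in female knockout libraries and 30.2, 26.3 and 26.7 CPM in female floxed libraries, no gap between the groups and a log2 fold change of -0.09 (SE 0.19, adjusted p = 0.794 by edgeR). Tgfb1 kept a smaller deficit, with 60.8, 110 and 60.7 CPM in female knockout libraries, against 95.6, 121 and 127 CPM in female floxed libraries. Its libraries 1 and 3 then stood at 53 and 52.9% of the female floxed mean, where they had stood at 12.3 and 17% without the correction. The log2 fold change was -0.57 (SE 0.23, edgeR adjusted p = 0.202). Tgfbr1, the gene of lowest GC content among the plus-strand genes, hardly moved: its libraries 1 and 3 stood at 60.2 and 64.3% of the female floxed mean after the correction and at 61.3 and 62.9% before. The ratio of Lrrc32 to Tgfb1 per kb was 11.4, 5.76 and 10.2 in female knockout libraries 1, 2 and 3 after the correction, against 6.26, 5.81 and 5.16 in female floxed libraries. It reached 8.63 in male knockout library 3 and 8.16 in male floxed library 2, so libraries 1 and 3 were still the highest but lay close to these. The range over the 12 libraries shrank to 2.77-fold for Tgfb1, 2.16-fold for Lrrc32 and 1.55-fold for Smad7, and was 2.07-fold for Tgfbr1 and 1.31-fold for Smad2. Tgfbr2 remained at -1.62 (SE 0.41, edgeR adjusted p = 0.101) in females and -1.08 (SE 0.28, edgeR adjusted p = 0.0629) over both sexes.

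**Figure D3:**
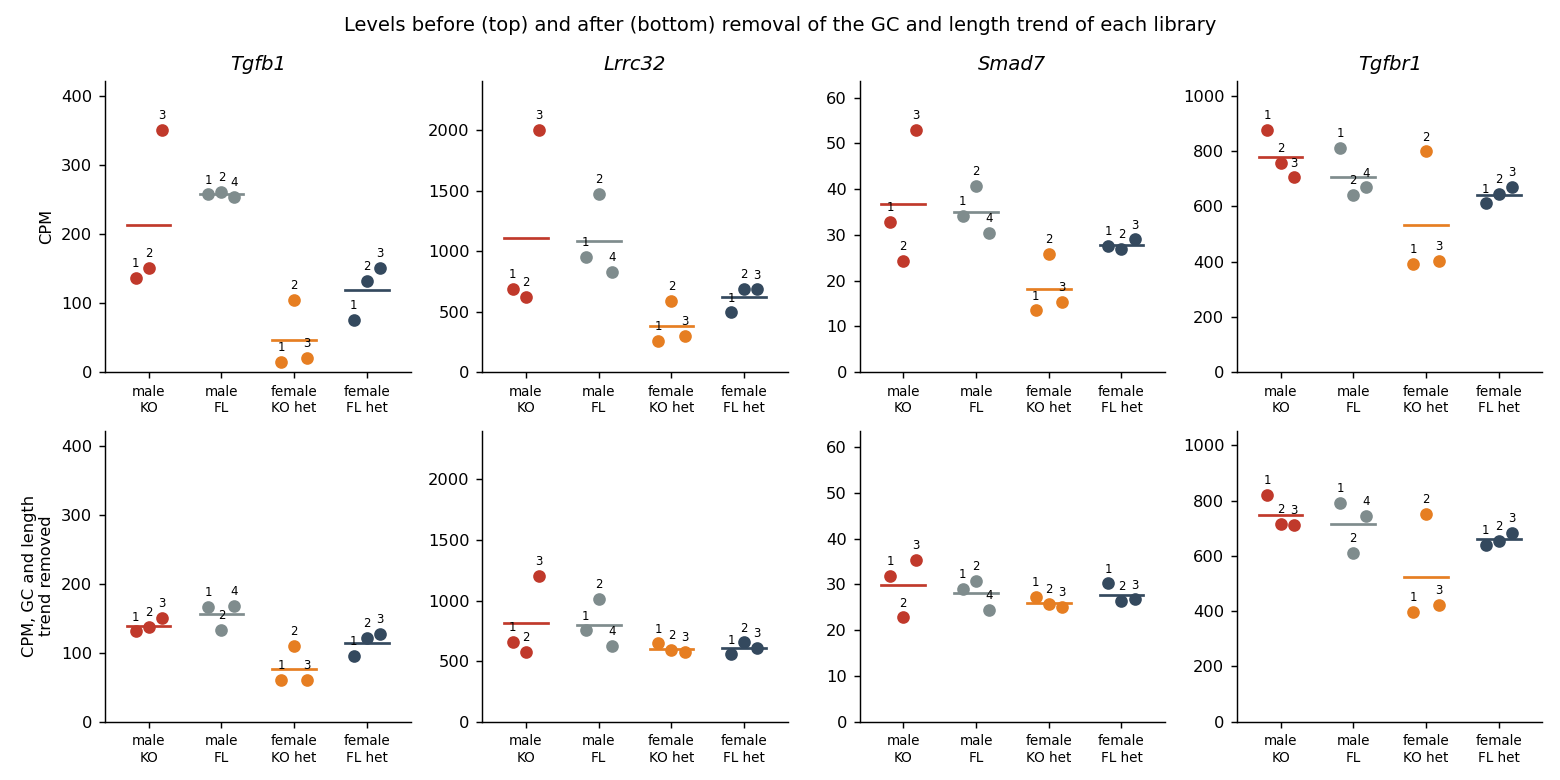
Level of Tgfb1, Lrrc32, Smad7 and Tgfbr1 in each library before (top row, CPM) and after (bottom row, CPM on the same axes) removal of its trend with GC content and length, with knockout left of floxed within each sex, bars at group means and replicate numbers above the points. Female knockout libraries 1 and 3 join the floxed libraries for Lrrc32, stay lower for Tgfb1 at 60.8 and 60.7 CPM, and hardly shift for Tgfbr1. For Smad7 library 1 joins them at 27.3 CPM, while library 3 stays a little below them at 25.0 CPM.

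The share of reads in mitochondrially encoded genes was 4.04, 2.77 and 3.4% in female knockout libraries 1, 2 and 3, against 2.64, 2.37 and 2.27% in female floxed libraries, and was thus highest in knockout libraries 1 and 3. The 20 myeloid and dendritic markers summed to 1794, 1714 and 2806 CPM in female knockout libraries 1, 2 and 3, against 1637, 564 and 780 CPM in female floxed libraries. Library 3 was the highest, while library 1 was level with library 2 and near floxed library 1, so this sum did not separate libraries 1 and 3 from the others. Every female knockout sum lay above every female floxed one, and so did every mitochondrial share. Neither can therefore be told apart from genotype in females. In males it came to 512 to 4296 CPM in male knockout and 303 to 3901 CPM in male floxed libraries. Of the 10 myeloid markers on the plus strand, 9 reached 10 CPM. Cd68, Cd14 and Xcr1 had at most 3 counts in every library, but they lie on the minus strand, where a low count shows no low level. With the mean level of these markers as a covariate, the female log2 fold change was -1.22 (edgeR adjusted p = 0.396) for Tgfb1, -0.47 (edgeR adjusted p = 0.584) for Lrrc32 and -1.52 (edgeR adjusted p = 0.203) for Tgfbr2. Since the marker sum ran with genotype in females, this fit may also remove a genotype difference. The part of the mitochondrial share in the female log2 fold changes was not tested.

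Floxed females could also be set against floxed males, a comparison added after the values were seen. The females were heterozygotes and the males carry a single X chromosome, so sex and allele state cannot be told apart in it. Tgfb1 had 75.4 to 151 CPM in female floxed and 254 to 262 CPM in male floxed libraries, Lrrc32 494 to 686 CPM in female and 828 to 1474 CPM in male libraries, and Smad7 27.0 to 29.0 CPM in female and 30.5 to 40.7 CPM in male libraries. In these 3 of the 7 tested genes all female libraries lay below all male ones, where 14.3% of all tested genes did so. The log2 fold change, female over male, was -1.10 (SE 0.66) for Tgfb1 and -0.80 (SE 0.47) for Lrrc32, each with an edgeR adjusted p of 0.665, and -0.33 (SE 0.30, edgeR adjusted p = 0.763) for Smad7. None of the 7 was called by edgeR, DESeq2 or limma-voom in this comparison, in which 0.0322% of all tested genes were by edgeR, and none had an unadjusted p under 0.05 by edgeR (6.14% of all). After removal of the GC and length trend the values were -0.44 for Tgfb1, -0.39 for Lrrc32 and -0.02 for Smad7.

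The 4 further lists place the set in its pathway. The first holds 26 other genes of ligands, latency and activation, of which 19 were tested, 17 of them on the plus strand. Over both sexes 1 was called, Itgb3, and it fell, where 0.637% of all tested genes were called lower and 2.68% higher. The list's median log2 fold change was 0.36, against -0.02 over all tested genes. Itgb3 encodes the integrin beta subunit that pairs with alpha-v and can bind the latent ligand. It had 94.3, 92.0 and 144 CPM in male knockout and 173, 171 and 150 CPM in male floxed libraries, and 52.8, 74.8 and 58.4 CPM in female knockout and 99.4, 136 and 124 CPM in female floxed libraries. In both sexes every knockout library was below every floxed library. Of all tested genes, 6.13% in males and 9.7% in females were lower without overlap, and the share in both sexes at once was not determined. The log2 fold change of Itgb3 was -0.77 (SE 0.15, edgeR adjusted p = 0.0205). The call ended without any 1 of 8 libraries (male knockout 1 or 2, male floxed 1 or 2, female knockout 1 or 3, female floxed 2 or 3), with an adjusted p between 0.0564 and 0.0729 and a log2 fold change between -0.76 and -0.70. It also ended without female knockout libraries 1 and 3 together (-0.63, edgeR adjusted p = 0.183). The subunit is also abundant in platelets, whose 9 markers summed to 1.7 to 155 CPM in male knockout, 4.62 to 189 CPM in male floxed, 12.4 to 47.9 CPM in female knockout and 2.79 to 9.66 CPM in female floxed libraries. Of the 5 platelet markers on the plus strand, 1 reached 10 CPM, Pf4. The other 4 lie on the minus strand, among them Itga2b, the platelet partner of this subunit, so their low counts show nothing of their level. The part of platelets in the result was not tested.

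The second list holds 40 regulators of SMADs, of which 29 were tested, and none was called over both sexes by edgeR, with 3 of 29 at an unadjusted p under 0.05 (20.2% of all tested genes). DESeq2 called 1 higher and 0 lower, where it called 6.22% of all tested genes higher and 2.88% lower. Limma-voom called 1 higher and 8 lower, where it called 14.8% of all higher and 22.5% lower. The list's median log2 fold change was -0.03, against -0.02 over all tested genes. The 2 plus-strand genes with the smallest p were Ldlrad4, which encodes a membrane protein that dampens SMAD activation, and Tgif2, a co-repressor of SMADs. Ldlrad4 had 257, 213 and 298 CPM in male knockout and 216, 214 and 203 CPM in male floxed libraries, and 285, 224 and 238 CPM in female knockout and 183, 196 and 194 CPM in female floxed libraries. Its log2 fold change was 0.33 (SE 0.10, edgeR adjusted p = 0.0882), and that of Tgif2 was -0.41 (SE 0.14, edgeR adjusted p = 0.146). Both are uncertain, since 52.1% of the exonic bases of Ldlrad4 and 61.6% of those of Tgif2 overlap genes on the other strand.

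The third list holds 23 genes taken as induced by TGF-beta in T cells, of which 15 were tested, Foxp3 among them. Whether each gene responds so in these cells was not tested. Over both sexes 4 were called higher in knockout and none lower by edgeR, Itgae, Ccr8, Entpd1 and Ctla4, where 2.68% of all tested genes were called higher and 0.637% lower. At an unadjusted p under 0.05 were 10 of 15, 3 of them lower, against 20.2% of all tested genes. DESeq2 called 6 higher and 2 lower (6.22 and 2.88% of all), and limma-voom 7 higher and 3 lower (14.8 and 22.5% of all). The median log2 fold change of the list was 0.35, and the list was put together with results of these libraries known. Itgae encodes the integrin subunit CD103, a textbook target of TGF-beta in T cells. It had 1232, 1020 and 1400 CPM in male knockout and 461, 554 and 686 CPM in male floxed libraries, and 1491, 871 and 919 CPM in female knockout and 541, 540 and 541 CPM in female floxed libraries. Every knockout library exceeded every floxed library of its sex, and the log2 fold change was 1.06 (SE 0.15, edgeR adjusted p = 0.0078), the call holding under each of 22 alternatives with adjusted p between 4.32e-07 and 0.0437. Of all tested genes, 8.2% in males and 15.3% in females were higher without overlap, and the share in both sexes at once was not determined. In neither sex alone did Itgae pass, at 1.10 (edgeR adjusted p = 0.11) in males and 1.02 (edgeR adjusted p = 0.0751) in females.

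The other 3 called genes of that list are known for roles in Treg cells that are not limited to TGF-beta. Ccr8, a chemokine receptor, had 416 to 508 CPM in male knockout and 308 to 375 CPM in male floxed libraries, and 503 to 741 CPM in female knockout and 365 to 395 CPM in female floxed libraries, and rose by 0.57 on the log2 scale (SE 0.10, edgeR adjusted p = 0.0177). Entpd1, the ectonucleotidase CD39, changed by 0.67 (SE 0.14, edgeR adjusted p = 0.0335), and Ctla4, an inhibitory receptor, by 0.50 (SE 0.12, edgeR adjusted p = 0.0457) on the log2 scale. Each of these calls depended on single libraries. That of Ccr8 ended without any 1 of 6 libraries (male knockout 1, male floxed 1, female knockout 3, female floxed 1, 2 or 3), with adjusted p between 0.0549 and 0.0724. That of Entpd1 ended without any 1 of 8 (male knockout 1 or 2, male floxed 1 or 2, female knockout 1 or 3, female floxed 2 or 3), with adjusted p between 0.0803 and 0.127. That of Ctla4 ended without any 1 of 10 (all but male knockout 3 and female knockout 2), with adjusted p between 0.0668 and 0.154. With the GC and length trend removed Entpd1 (edgeR adjusted p = 0.0684) and Ctla4 (edgeR adjusted p = 0.111) were no longer called, nor was Ctla4 (edgeR adjusted p = 0.0602) when plus-strand genes only were fitted. Without female knockout libraries 1 and 3 the log2 fold changes were 0.41 for Ccr8, 0.53 for Entpd1 and 0.37 for Ctla4, with edgeR adjusted p of 0.122, 0.28 and 0.23.

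The fourth list holds 19 genes taken as repressed by TGF-beta in T cells, which was likewise not tested here. Of these genes 12 were tested for a genotype difference, 6 of them on the plus strand. None was called over both sexes by edgeR, with 5 of 12 at an unadjusted p under 0.05 (20.2% of all tested genes), and the median log2 fold change was -0.11. DESeq2 called 3 higher and 2 lower (6.22 and 2.88% of all), and limma-voom 3 higher and 3 lower (14.8 and 22.5% of all). Eomes, a transcription factor of effector T cells, had 1.45, 1.39 and 3.99 CPM in male knockout and 4.83, 6.21 and 3.27 CPM in male floxed libraries, and 1.75, 1.22 and 1.25 CPM in female knockout and 2.5, 3.1 and 4.35 CPM in female floxed libraries. Its log2 fold change was -1.14 (SE 0.31, edgeR adjusted p = 0.0752). Stat4, which transmits interleukin-12 signals, stood at 0.35 on the log2 scale (SE 0.10, edgeR adjusted p = 0.086). This value is uncertain, since 1033 of the 3872 exonic bases of Stat4 are shared with Gm28177 on the same strand. By edgeR no gene of the 4 lists was called in males, in females or for the female minus the male contrast. Of their 75 tested entries, 9, 22 and 3 had an unadjusted p under 0.05, where 8.12, 19.2 and 2.73% of all tested genes did. Ldlrad4, Skil and Pmepa1 stand in both the second and the third list, so Ldlrad4 at least is counted more than once.

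**Figure D4:**
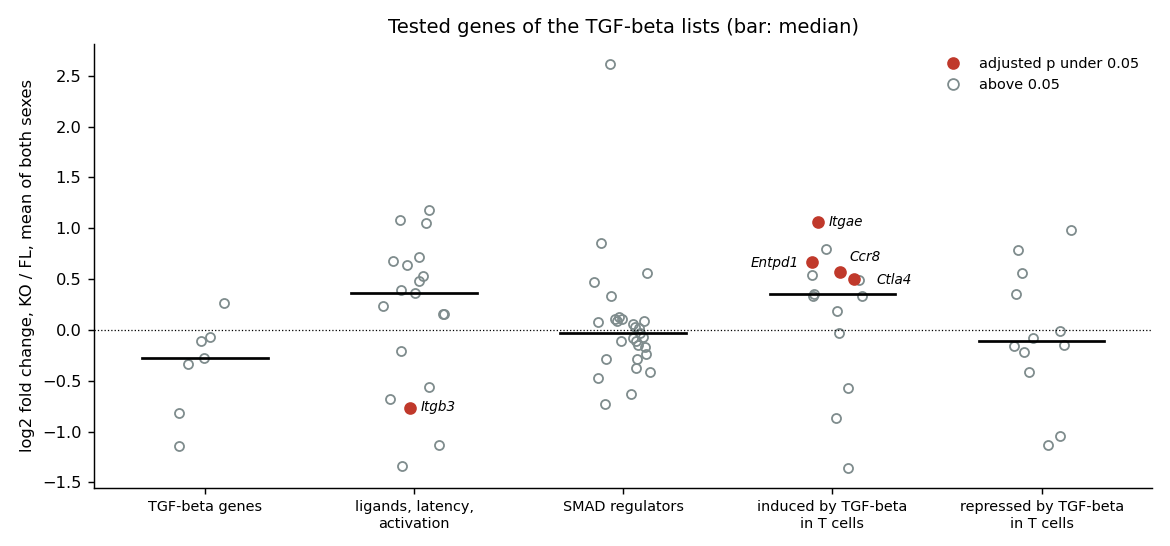
Log2 fold change, knockout over floxed as the mean of both sexes, of every tested gene in the TGF-beta set and the 4 further lists, with a black bar at each median; filled red dots have an edgeR adjusted p under 0.05. The 5 filled dots are Itgb3 at -0.77 and Itgae, Entpd1, Ccr8 and Ctla4 at 1.06, 0.67, 0.57 and 0.50, and none of the 7 dots of the TGF-beta set is filled.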

How the data were processed

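Libraries were made from total RNA of sorted cells lysed in TRIzol with SMARTer Stranded RNA-Seq kits, per the labels' protocols. The deposited values are whole-number read counts per gene, which the authors made with CASAVA, STAR (2.5.2b and 2.3.0e) and HTSeq 0.6.1p1, per the submitters' processing notes, which name the build mm9; the annotation, the strand setting and the role of each STAR version are not given in the sources used here. HTSeq's 5 summary entries, 64.3 to 70.5% of a library's reads, were left out. Strand, GC content, exon length and coordinates came from GENCODE release M21 on GRCm38, a later build than that of the counts, and were matched by symbol for 54510 of 55453 genes and by synonym for 1 more.

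The fit was made with edgeR 4.0.16 in R 4.3.3: filterByExpr on the 4 groups (12411 of 29806 genes with reads were kept), TMM scaling, and a robust quasi-likelihood model with 1 mean per group over all 12 libraries. Tests are two-sided with Benjamini-Hochberg adjustment over all tested genes, at a threshold of 0.05, and intervals cover 95%. CPM are counts scaled to the TMM-normalised library size, and length is the union of annotated exons. The GC and length trend was estimated per library on 5066 genes with mgcv 1.9.3 and removed as offsets; a GC value exists for 99.3% of tested genes. Alternatives were RLE scaling, DESeq2 1.42.0, limma 3.58.1 voom with quality weights, no filter, a filter of 5 CPM in 3 libraries, a replicate block, plus-strand genes only, the trend removal, a myeloid covariate, 1 sex only, female knockout libraries 1 and 3 left out, and each library left out in turn. The edgeR fit was also run on simulated counts with known changes. They held no GC trend and no outlying libraries, so that run does not bear on these features of the data. Figures were drawn with matplotlib 3.10.9.

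All TGF-beta genes of the set are described. From each further list the genes called in any comparison are named, or, where none was called, the 2 plus-strand genes with the smallest p over both sexes, and Foxp3 is always given. The members and lists were chosen with earlier results of these data known, so their counts are no independent evidence. The comparison of floxed females with floxed males was added after the values were seen.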

Additional observations from a re-analysis of the deposited data

How the results depend on the processing

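Minus-strand genes are hardly covered, 3 of the 10 genes could not be tested, and with 3 libraries per group the female contrast turns on whether knockout library 2 or libraries 1 and 3 are kept. The cause of the changes listed here was not tested. Fits with 1 sex give no value over both sexes or for the difference. The fit without female knockout libraries 1 and 3 keeps 1 female knockout library, so a missing call there does not show that a change is absent.

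None of the tested TGF-beta genes was called in males under any alternative. None was called in females, over both sexes or for the difference with RLE scaling, no low-count filter, the 5 CPM filter, the replicate block, plus-strand genes only, the GC and length trend removed, the myeloid covariate, or without female knockout libraries 1 and 3. The TGF-beta genes called were 1 in females and 1 over both sexes with DESeq2, and 6, 4 and 2 in females, over both sexes and for the difference with limma-voom. Over the fits that leave out 1 library they numbered 0 to 4 in females, 0 to 3 over both sexes and 0 to 2 for the difference, the highest each time without female knockout library 2.

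Of all genes, 3 were called in males, 25 in females, 411 over both sexes and 0 for the difference. In males the count was 26 with no filter, 0 with plus-strand genes only, 0 with the trend removed, 0 with the myeloid covariate, 0 with 1 sex, 11 without female knockout libraries 1 and 3, 237 with DESeq2, 177 with limma-voom and 0 to 35 without 1 library. In females it was 94 with no filter, 50 with the 5 CPM filter, 13 with the myeloid covariate, 0 with 1 sex, 0 without female knockout libraries 1 and 3, 703 with DESeq2, 5437 with limma-voom and 0 to 3089 without 1 library. Over both sexes it was 44 without female knockout libraries 1 and 3, 1129 with DESeq2, 4630 with limma-voom and 98 to 2940 without 1 library. For the difference it was 1040 with limma-voom and 0 to 1108 without 1 library.

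Libraries that share a number did not deviate together in every pair, so the number was not taken as a pairing. The correlation of their deviations was 0.442 and -0.614 for male numbers 1 and 2, and 0.189, 0.279 and -0.225 for female numbers 1, 2 and 3, and 2 of 6 female libraries correlated best with their own number. With the replicate number as a block, 0 genes were called in males, 0 in females and 209 over both sexes. The calls of Ccr8 (edgeR adjusted p = 0.0692), Entpd1 (0.0578) and Ctla4 (0.0777) over both sexes ended under the block.

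Values that changed sign had not been called. Under the block the male log2 fold change was -0.38 for Lrrc32 and -0.12 for Smad7, and the difference for Itgb8 was 0.19. Under limma-voom these were -0.48, -0.18 and 0.06. With the myeloid covariate Smad2 was 0.02 in males and the difference for Itgb8 was 0.04. With the trend removed Lrrc32 was 0.01 over both sexes. Without female knockout libraries 1 and 3, Itgb8 was -0.11 and Tgfbr1 0.32 in females, Tgfbr1 was 0.23 over both sexes, and the differences were 0.09 for Tgfb1 and 0.18 for Tgfbr1. Without 1 library, male values ran from -0.71 to 0.32 for Lrrc32, from -0.08 to 0.02 for Smad2, from -0.28 to 0.30 for Smad7 and from -0.07 to 0.62 for Itgb8. Likewise Tgfbr1 ran from -0.27 to 0.01 over both sexes, the differences from -0.37 to 0.32 for Itgb8 and from -1.19 to 0.02 for Lrrc32, and Smad2 in floxed females against floxed males from -0.01 to 0.08.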
